A study of Mus musculus with 15 samples.

Results

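The 10 macrophage transcripts Tyrobp, Fcer1g, Csf1r, Adgre1, Ms4a7, Cd68, C1qa, C1qb, C1qc and Pf4 were followed through RNA-seq libraries of tumor vascular populations. They were taken by gene name from a table of 53465 genes, and the set was selected on earlier results of these data, so their values are given as a description and carry no p-value. Mouse B16-F0 melanomas were grown in adult mice of both sexes that carried the CAG-GFP transgene, and host cells that were GFP+, negative for a lineage cocktail (Lin-) and CD34+ were sorted into 3 populations. Endovascular progenitors (EVP) were CD31lo VEGFR2lo, transit amplifying cells (TA) were CD31int VEGFR2lo and definitive differentiated cells (D) were CD31hi VEGFR2hi. Each population had 5 libraries, numbered as replicates 1 to 5, and no population was treated.

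All 3 populations shared the transgene, the tumor line and a magnetic depletion of Lin+ cells before the sort. Because CAG drives GFP in host cells of every kind, GFP did not separate endothelial cells from blood cells, so the exclusion of leukocytes rested on the depletion and the Lin- CD34+ gate. In other mice, with a YFP label driven by Cdh5, the authors reported that nearly all Lin- CD34+ tumor cells carried YFP. They also reported these populations to be negative for c-kit. The antibodies in the lineage cocktail, the number of mice or tumors behind a library and any pooling were not given in the sources used here.

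Macrophages are phagocytes that settle in every tissue and gather in tumors, where many of them lie along vessels. Their survival depends on the receptor for CSF1, and many of their activating receptors have no signaling tail and work through small adaptors that carry an ITAM, a motif that recruits the kinase Syk. They are also the main source of C1q, the recognition molecule of the classical complement pathway, which is built from 3 kinds of chain.

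The libraries held 5394356 to 26513073 reads on genes with a median of 19049194. Each of the 10 transcripts had more than 3 reads in every library, and the smallest count was 17 reads for Ms4a7 in EVP replicate 1. Replicate 1 of each population carried reads on genes that these cells are not known to use: 96.2% of the 1406 olfactory receptor genes had at least 1 read in EVP replicate 1, 75.9% in TA replicate 1 and 84.4% in D replicate 1, against 13.6% to 65.1% in replicates 2 and 3 and 2.70% to 4.55% in replicates 4 and 5. By the labels all 3 populations are endothelial, and the 7 endothelial markers summed to 88671 to 134890 normalized counts in D, 5566 to 66908 in TA and 12512 to 33916 in EVP. The 6 fibroblast markers ran the other way, from 832 to 3242 in D, 158090 to 507170 in TA and 704250 to 1262600 in EVP. Such sums weigh the highest genes most. In the limma fit described below, 5 of the 7 endothelial markers were called higher in TA than in EVP, beside 1.94% of all genes. These were Pecam1, Cdh5, Kdr, Tie1 and Emcn. The median log2 EVP minus TA of the 7 was -4.08, and 2 were higher in EVP at an unadjusted p under 0.05.

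As a share of all reads on genes, the 10 transcripts together took between 0.00862% (95% Wilson interval 0.00823 to 0.00904) in EVP replicate 3 and 0.150% (0.148 to 0.152) in TA replicate 4. These intervals cover counting error only. The summed level was lowest in EVP, with a median of 2109.8 normalized counts (range 1413 to 6472), intermediate in D at 4790 (2397 to 6586) and highest in TA at 9215 (5957 to 22398). All 10 transcripts had their highest population mean in TA. The order of the other two was less even, since the EVP mean exceeded the D mean for Tyrobp and Csf1r and lay below it for the other 8. In bulk RNA, fewer cells of a type and less RNA per cell cannot be told apart.

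**Figure D1:**
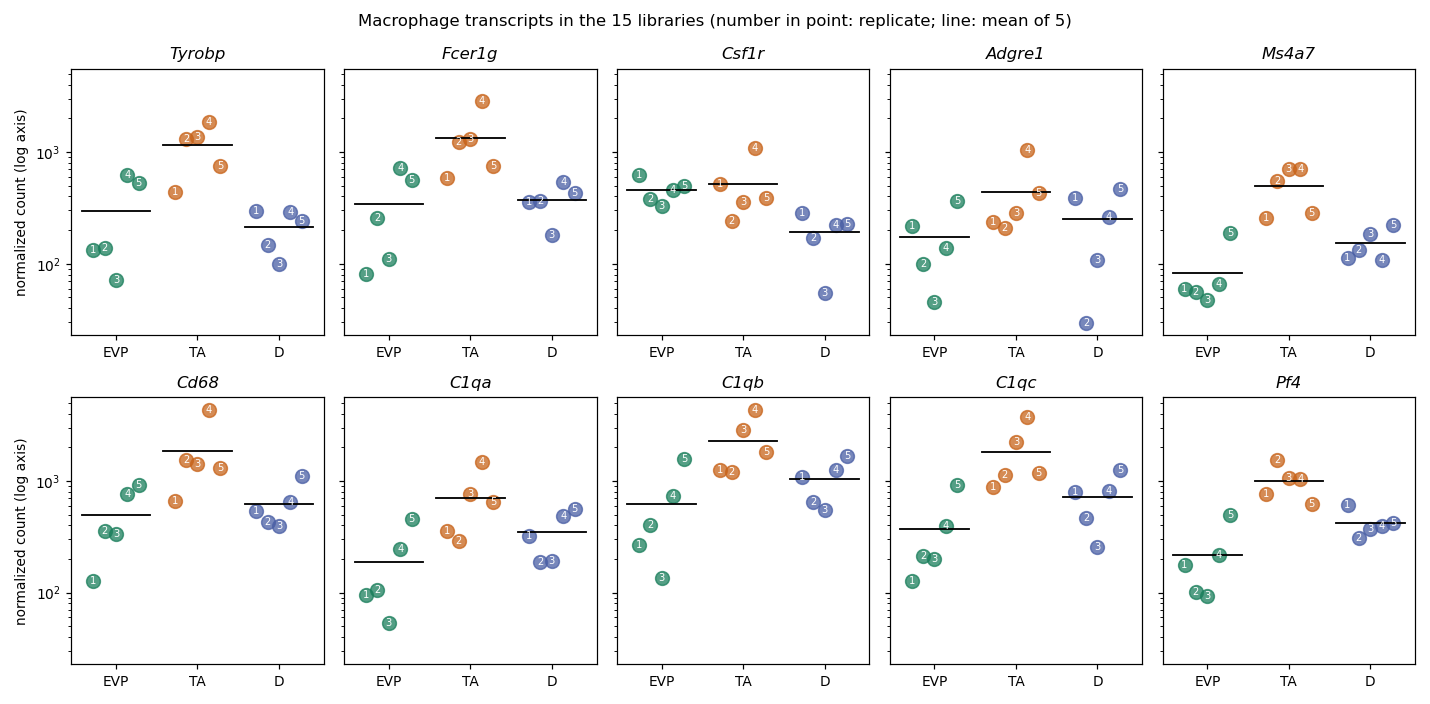
Normalized count (log axis) of each of the 10 transcripts in EVP, TA and D, with 1 point per library, the replicate number in the point and a line at the mean of 5. TA has the highest mean in all 10 panels, and TA replicate 4 is the highest of the 15 libraries in 9 of them.

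Tyrobp (ENSMUSG00000030579), which encodes the ITAM adaptor DAP12, stood at 133, 138, 72.0, 621 and 528 normalized counts in EVP replicates 1 to 5. In TA it stood at 441, 1298, 1372, 1870 and 743, and in D at 295, 148, 98.5, 288 and 240. Every TA library was above every D library, while EVP fell into 3 low libraries and 2 that reached the TA range. The TA mean was 1145 ± 561 (SD, n = 5), which is 5.35 times that of D and 3.84 times that of EVP. The gene lies at chr7:30413760-30417585 on GRCm38, and its neighbour Hcst lies 127 bases away on the opposite strand.

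Fcer1g (ENSMUSG00000058715) encodes the other common ITAM adaptor, the gamma chain shared by Fc receptors. Its values were 80.8, 255, 110, 717 and 564 in EVP, 588, 1219, 1310, 2849 and 756 in TA and 360, 366, 181, 539 and 430 in D. The lowest TA library was above the highest D library, and EVP replicate 4 lay inside the TA range. The ratio of Tyrobp to Fcer1g per base of exon was 0.86 to 1.4 in TA and 0.529 to 1.08 in D, so these ranges overlapped.

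Fcer1g is also a subunit of the IgE receptor of mast cells, and mast cell genes were high in TA. The 9 mast cell markers summed to 4828 to 103780 normalized counts in TA, 324 to 16640 in EVP and 2754 to 3763 in D, where Kit, which endothelial cells can also express, accounted for most of the sum (2992 ± 576). The mast cell protease gene Cma1 was at 0 in D replicates 2, 3 and 5 and at 1.38 in EVP replicate 5, where Fcer1g stood at 366, 181, 430 and 564. The IgE receptor alpha chain gene Fcer1a was at 0 in those same 4 libraries. The part of mast cell RNA in the Fcer1g level was not tested.

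Csf1r (ENSMUSG00000024621), the receptor for CSF1 and IL-34, had a different profile. It stood at 628, 379, 327, 453 and 493 normalized counts in EVP, at 521, 240, 358, 1081 and 391 in TA and at 284, 171, 54.7, 224 and 225 in D. Each EVP library was above each D library, and EVP and TA were mixed. The EVP mean of 456 ± 116 and the TA mean of 518 ± 330 differed by less than the spread of either, a fold of 1.14. On the log2 scale TA minus D was 1.42 ± 0.43 (SE) and EVP minus D was 1.4 ± 0.43.

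Some reads given to Csf1r could belong to another gene. Its exons overlap those of Hmgxb3 on the opposite strand over 873 bases, or 15.1% of the Csf1r exon length, and the protocol does not mark strand. How such reads were shared in the count was not given in the sources used here. The ratio of C1qb to Csf1r per base of exon was 2.18 to 16.8 in EVP, 12.9 to 41.9 in TA and 20 to 53.7 in D. Correlated over the 15 libraries with the mean log2 level of the other 9 transcripts, Csf1r had a Pearson r of 0.31, the lowest of the 10, whereas C1qb and C1qc had 0.95. After each population's mean was subtracted, r was 0.48 for Csf1r and 0.62 to 0.95 for the others. These correlations describe 15 libraries that share depth and scaling.

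**Figure D2:**
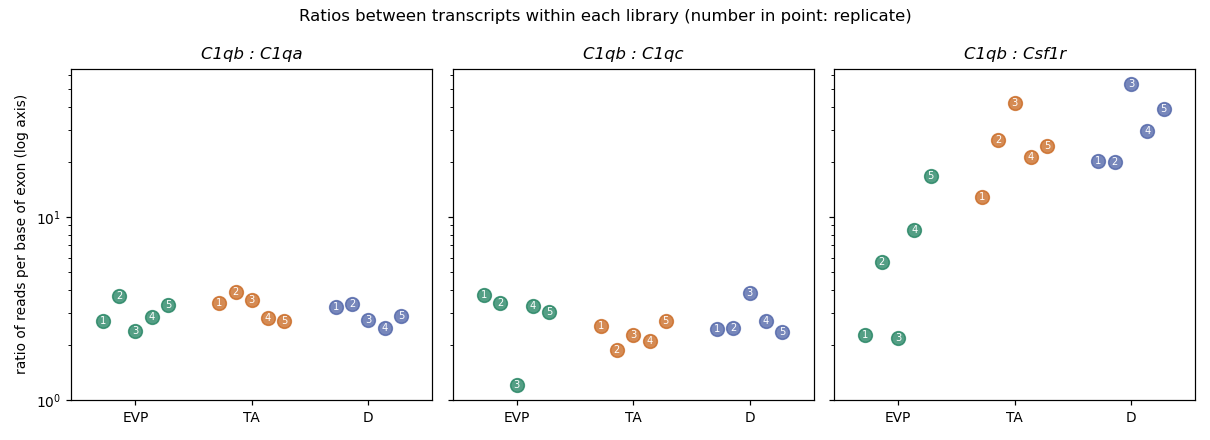
Ratio of reads per base of exon (log axis) between C1qb and C1qa, C1qc or Csf1r within each library, with the replicate number in the point. The C1qb to C1qa ratio stays between 2.38 and 3.90 in the 15 libraries, whereas the C1qb to Csf1r ratio runs from 2.18 in EVP replicate 3 to 53.7 in D replicate 3.

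Adgre1 (ENSMUSG00000004730) encodes F4/80, the adhesion receptor used to mark mouse macrophages. Its values were 218, 99.3, 45, 138 and 362 in EVP, 238, 207, 284, 1051 and 426 in TA and 384, 29.4, 107, 263 and 462 in D. The 3 populations overlapped throughout. Only TA replicate 4 stood clear of the other libraries, and without it the log2 difference of EVP minus TA went from -1.39 ± 0.70 to -1.01 ± 0.71.

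Ms4a7 (ENSMUSG00000024672), a membrane protein of the MS4A family found on macrophages, separated TA from both other populations. It stood at 59.7, 56.2, 47.5, 65.5 and 187 normalized counts in EVP, at 255, 549, 704, 706 and 283 in TA and at 113, 132, 186, 107 and 224 in D. The lowest TA library was above the highest library of EVP and of D. The TA to EVP fold of means was 6.0, the widest of the 10. EVP replicate 5 stood above the 4 other EVP libraries and inside the D range.

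Cd68 (ENSMUSG00000018774) encodes a glycoprotein of lysosomes that phagocytes make in quantity. Its values were 126, 358, 332, 764 and 912 in EVP, 658, 1529, 1431, 4273 and 1317 in TA and 535, 427, 396, 645 and 1111 in D. TA replicate 4 was far above the others, and TA replicate 1 lay among the D libraries. EVP and D overlapped across most of their ranges, with means of 499 ± 327 and 623 ± 290. On GRCm38 the gene lies at chr11:69664213-69666153, Fcer1g at chr1:171229572-171234365, Adgre1 at chr17:57358686-57483529, Ms4a7 at chr19:11321039-11336146 and Pf4 at chr5:90772435-90773383, all of them protein-coding.

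The 3 C1q chains are encoded side by side within 18675 bases at chr4:136880129-136898803 on GRCm38, in the order C1qb, C1qc and C1qa. C1qa (ENSMUSG00000036887) stood at 94.8, 105, 54.0, 244 and 452 in EVP, at 355, 293, 766, 1486 and 641 in TA and at 323, 186, 194, 483 and 555 in D. C1qb (ENSMUSG00000036905) stood at 267, 406, 134, 726 and 1556 in EVP, at 1262, 1196, 2828, 4348 and 1803 in TA and at 1087, 647, 553, 1241 and 1664 in D. C1qc (ENSMUSG00000036896) stood at 126, 213, 198, 397 and 919 in EVP, at 881, 1135, 2227, 3704 and 1188 in TA and at 796, 463, 255, 813 and 1256 in D. In all 3 genes replicate 5 was the highest of EVP and of D, and replicate 4 was the highest of TA.

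C1qb and C1qa kept close to a fixed ratio. C1qb exceeded C1qa 2.38 to 3.72 times per base of exon in EVP, 2.69 to 3.90 times in TA and 2.46 to 3.32 times in D. The ratio of C1qb to C1qc was wider, from 1.2 in EVP replicate 3 to 3.85 in D replicate 3, and that of C1qa to C1qc ran from 0.479 to 1.41 over all 15 libraries. After the population means were subtracted, C1qa and C1qb had the highest correlation of any 2 of the transcripts (r = 0.97), ahead of Tyrobp with Fcer1g (r = 0.90).

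Pf4 (ENSMUSG00000029373) encodes the chemokine CXCL4, which is stored in platelet granules and is also made by macrophages. It stood at 176, 101, 92.4, 215 and 499 normalized counts in EVP, at 758, 1549, 1059, 1031 and 617 in TA and at 612, 309, 371, 397 and 418 in D. No TA library overlapped with EVP or D, although TA replicate 5 and D replicate 1 were 617 and 612. Pf4 alone had its maximum in TA replicate 2 and not in TA replicate 4. TA replicate 2 also had the highest sum of 10 platelet genes (2149 normalized counts, against 167 to 1473 in the other 14 libraries).

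Ppbp, a platelet chemokine gene next in kind to Pf4, was at 2.07 in EVP replicate 5, 17.4 in TA replicate 5 and 10.3 in D replicate 5. Pf4 was 499, 617 and 418 in those 3 libraries. Ppbp reached 505 in TA replicate 2 and 489 in TA replicate 3, with Pf4 at 1549 and 1059. Ppbp was lower in EVP than in TA (log2 -4.25 ± 0.94, limma adjusted p = 0.017), as was the platelet tubulin gene Tubb1 (-4.23 ± 0.83, adjusted p = 0.0095). The other 8 platelet genes did not pass the test between EVP and TA. The part of platelet RNA in the Pf4 level was not tested.

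RefSeq promoter windows (GRCm38.p6, from 250 bases before the transcription start to 50 after it) were at hand for 6 of the 10 genes, Fcer1g, C1qb, C1qc, Pf4, Cd68 and Ms4a7. They were searched on both strands for GAGGAAGT, a site of the kind bound by PU.1, the factor encoded by Spi1 that controls many macrophage genes. The windows of C1qc and Pf4 held it, as did 3.20% of all 32851 windows in the table. The shorter core GAGGAA, which lies inside the longer motif, was in the windows of C1qb, C1qc, Cd68, Ms4a7 and Pf4 and in 28.3% of all windows. The stretches of C1qc and Pf4 before the start are shown because they hold the full motif, and that of C1qb because it holds the core beside another C1q chain gene, with the motif in capitals. They run 5′ to 3′ along the gene. The C1qc stretch is at chr4:136893072-136893139 on the minus strand, Pf4 at chr5:90772395-90772434 on the plus strand and C1qb at chr4:136886201-136886260 on the minus strand, and in C1qc and Pf4 the capitals are the motif as read on the opposite strand.
C1qc: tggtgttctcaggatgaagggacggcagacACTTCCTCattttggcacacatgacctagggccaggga
Pf4: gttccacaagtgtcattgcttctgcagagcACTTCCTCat
C1qb: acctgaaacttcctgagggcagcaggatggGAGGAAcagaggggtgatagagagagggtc
A match of letters is a description of the window, and binding was not measured here.

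Per base of exon, in TPM computed here from the reads (each library scaled to the same total over all genes), the transcripts fell into a high and a low group in each population. In TA, C1qb was the highest at 388 ± 260, followed by Tyrobp at 316 ± 175, Fcer1g at 284 ± 214, Cd68 at 275 ± 232 and Pf4 at 246 ± 96.7, and neighbours in that order differed by less than their SD. C1qc at 175 ± 127 and C1qa at 127 ± 97.0 came next, well above Adgre1 at 25.5 ± 22.8, Ms4a7 at 20.3 ± 10.2 and Csf1r at 16.1 ± 12.0. In EVP the same 7 transcripts were above the other 3, with C1qb at 102 ± 107 and Csf1r at 12.6 ± 2.65. In D, Tyrobp had moved from the second place to the seventh at 55.7 ± 21.4, Pf4 was second at 101 ± 11.2 and Csf1r was the lowest at 5.74 ± 2.35.

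The comparison of EVP with TA asks what sets apart the 2 populations that share low VEGFR2. A linear model (limma) was fitted to the log2 normalized counts of 25549 genes, and an adjusted p of 0.05 was the threshold. In it 8 of the 10 transcripts were past the threshold, all of them higher in TA, beside 1.94% of all genes called higher in TA and 1.56% called higher in EVP. Since the set was chosen on these libraries, nothing is read from that count. Csf1r (EVP minus TA -0.02 ± 0.43) and Adgre1 (-1.39 ± 0.70) were the 2 that were not past it. The other log2 differences ran from -1.92 ± 0.51 for Cd68 to -2.64 ± 0.41 for Ms4a7. The median of the 10 was -2.20, against 0.09 for all genes tested. Only Pf4 and Ms4a7 had no overlap between EVP and TA libraries, beside 1.59% of all genes that were higher in TA without overlap.

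The count of 8 moved with the method and with single libraries. It was 3 with edgeR, beside 3.03% of all genes called higher in TA, and 8 with DESeq2, beside 2.34%. With only these 2 populations fitted it was 3 (1.00% of all genes), and without the filter on low values 4 (0.82%). It was 3 without EVP replicate 1, 2 or 3 or without TA replicate 3 or 4, and 5 without TA replicate 2. The share of all genes called higher in TA was 1.11% to 2.22% in these fits. It was 2, beside 1.59% of all genes, with EVP replicate 1 and TA replicate 4 both left out, a choice made after seeing the data. The median log2 difference was then -1.66 and 9 of the 10 were higher in TA. Csf1r changed sign, to 0.17.

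Between TA and D, which differ in CD31 and VEGFR2, all 10 transcripts had the higher mean in TA, by 1.77 times for Adgre1 to 5.35 times for Tyrobp. Past the threshold were Tyrobp (log2 TA minus D 2.36 ± 0.55), Ms4a7 (1.64 ± 0.41), Csf1r (1.42 ± 0.43) and Pf4 (1.22 ± 0.39). Of all genes, 8.21% were called higher in TA and 4.31% higher in D, and again nothing is read from the 4 of 10. Tyrobp, Pf4, Ms4a7 and Fcer1g had no overlap between TA and D, as had 5.56% of all genes with TA higher. Fcer1g (1.70 ± 0.55) did not pass the threshold although its libraries did not overlap. The C1q chains were at 0.92 ± 0.55 for C1qa, 1.08 ± 0.54 for C1qb and 1.33 ± 0.52 for C1qc. Without TA replicate 4, or without D replicate 2, 3 or 4, 2 transcripts were past the threshold. The share of all genes called higher in TA was then 6.59% to 7.38%. EdgeR called 4 of the 10 and DESeq2 6, all higher in TA, and limma without the filter on low values called 2.

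Between EVP and D the transcripts did not move as a block. Csf1r was past the threshold and higher in EVP (log2 EVP minus D 1.4 ± 0.43), where 11.6% of all genes were called, and Pf4 was past it and higher in D (-1.21 ± 0.39), where 7.46% were. Csf1r had no overlap between the libraries, as had 10.2% of all genes with EVP higher. The C1q chains lay between -1.12 ± 0.52 and -1.14 ± 0.55 and Ms4a7 at -1.01 ± 0.41. Tyrobp was at 0.11 ± 0.55, with EVP above D in 12 of 25 pairs of libraries although its EVP mean was 1.4 times the D mean. The median of the 10 was -0.77, whereas that of all genes was 0.46. The number past the threshold with D higher was 5 without EVP replicate 5, beside 6.78% of all genes. Neither Csf1r nor Pf4 was past the threshold without EVP replicate 1 or D replicate 3. Between EVP and D, edgeR called 0 of the 10 transcripts. DESeq2 called 1 of them higher in EVP and 0 higher in D. All 3 comparisons share libraries, so they are not independent of each other.

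**Figure D3:**
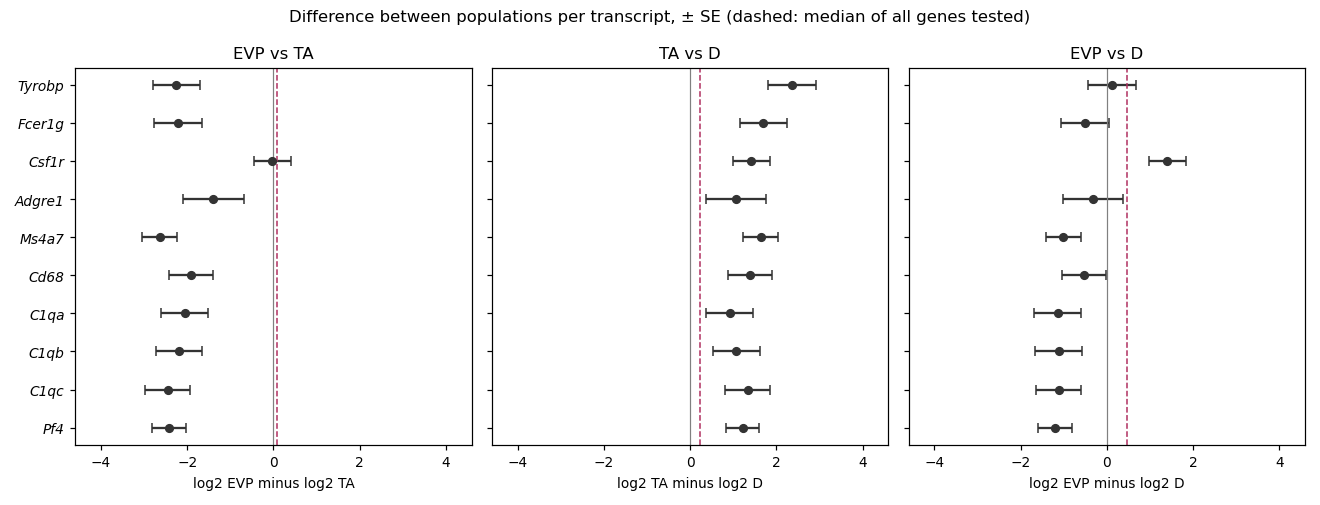
Log2 difference between 2 populations for each of the 10 transcripts, with bars of ± 1 SE from the limma fit and a dashed line at the median of all 25549 genes tested. EVP minus TA lies below 0 for all 10 but is -0.02 for Csf1r, TA minus D lies above 0 for all 10, and EVP minus D is on both sides of 0.

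Within a population the transcripts were high or low together from library to library. TA replicate 4 had the highest value in TA for 9 of the 10, EVP replicate 5 the highest in EVP for 7 and D replicate 5 the highest in D for 6. EVP replicate 3 was the lowest in EVP for 7 of them and D replicate 3 the lowest in D for 6. The spread between libraries of 1 population was accordingly wide, with a coefficient of variation from 25.4% (Csf1r in EVP) to 92.1% (C1qb in EVP).

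Replicates 4 and 5 stood apart from replicates 1 to 3 in the olfactory receptor reads, and they also differed in the transcripts. Among replicates 1 to 3, the TA mean was above the EVP mean for 9 of the 10 and the median TA to EVP fold was 6.77. Csf1r was the exception, at 0.838. Among replicates 4 and 5, TA was above EVP for all 10 with a median fold of 2.88. The median TA to D fold was 2.63 in the first set and 2.67 in the second. The D to EVP fold of means was above 1 in the first set and below 1 in the second for Tyrobp (1.57 and 0.459) and Fcer1g (2.03 and 0.757), so the higher Tyrobp mean of EVP came from replicates 4 and 5. With 2 or 3 libraries a population in each set, these are values without a test.

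Set against olfactory receptor genes as a measure of stray reads, the median of the 10 transcripts was near that level in 1 library. In EVP replicate 1 the 10 had 0.315 to 5.76 times the mean reads per base of the olfactory receptor genes, and Ms4a7 was the one below it. The lowest multiple in the other 14 libraries was 3.69, for Ms4a7 in D replicate 1, and Ms4a7 was at 5.94 in TA replicate 1. The median multiple in these 14 libraries was 50.8 or more. The EVP replicate 1 values are therefore close to this level of stray reads, and the median EVP minus TA difference without that library was -1.96.

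**Figure D4:**
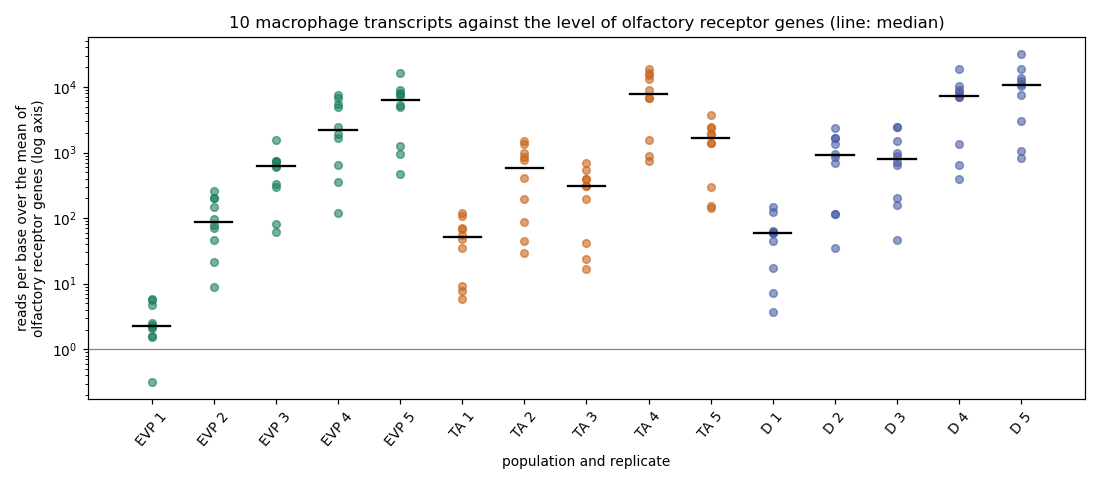
Reads per base of exon of each of the 10 transcripts divided by the mean over the olfactory receptor genes (log axis) in the 15 libraries, with a line at the median of the 10 and a grey line at 1. The median multiple is 2.27 in EVP replicate 1, 50.8 in TA replicate 1, 60.1 in D replicate 1 and 87.8 or more in the other 12 libraries.

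Other macrophage genes, 28 in all, gave a partial match. Their summed level was 2399 to 14703 normalized counts in EVP, 11691 to 60413 in TA and 7228 to 16254 in D. Between EVP and TA, 5 of the 28 were higher in TA by limma, beside 1.94% of all genes. At an unadjusted p under 0.05, 14 of the 28 were higher in TA, while 3962 of the 25549 genes differed in either direction. None was higher in EVP by limma, by edgeR, by DESeq2 or at an unadjusted p under 0.05 (0 of 28 each). The 5 called higher in TA included the Fc receptor gene Fcgr1 (log2 EVP minus TA -2.86 ± 0.76, adjusted p = 0.046) and Ms4a6d (-2.54 ± 0.43, adjusted p = 0.0040). The others were the lipid receptor gene Trem2 (-2.38 ± 0.63, adjusted p = 0.047), the lysozyme gene Lyz2 (-2.19 ± 0.54, adjusted p = 0.032) and the LPS coreceptor gene Cd14 (-1.67 ± 0.41, adjusted p = 0.030). The median of all 28 was -1.44. Fcgr1, Trem2 and Lyz2 were not called by edgeR. With 1 library left out the count was 1 to 7, and with EVP replicate 1 and TA replicate 4 both out it was 1 (Ms4a6d).

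Between TA and D, the fractalkine receptor gene Cx3cr1 (log2 TA minus D 3.12 ± 0.81, adjusted p = 0.015) and the perforin-like gene Mpeg1 (3.94 ± 0.98, adjusted p = 0.012) were higher in TA. None of the 28 was higher in D by limma, edgeR or DESeq2, and 1 was at an unadjusted p under 0.05. Cx3cr1 was also higher in EVP than in D (4.07 ± 0.81, adjusted p = 0.0012), with 0 to 7.25 normalized counts in D. Mertk, a receptor for dying cells, and Ms4a6d were higher in D than in EVP, at -2.37 ± 0.66 (adjusted p = 0.015) and -3.70 ± 0.43 (adjusted p = 4.5e-06). Ms4a6d stood at 1332 to 2448 in D and 70.2 to 323 in EVP, so that this relative of Ms4a7 had its highest mean in another population. Cd163, Vsig4, Timd4 and Marco, scavenger and phagocytic receptors of resident macrophages, were at or near 0 in at least 1 library. None of these receptors passed the test. Called higher in TA than in D were 2 of the 28, beside 8.21% of all genes. Between EVP and D, 1 of the 28 was higher in EVP and 2 in D, beside 11.6% and 7.46% of all genes. In the main limma fit the share of the 28 called in these comparisons did not exceed the share of all genes. Between TA and D this depended on the method. DESeq2 called 11 of the 28 higher in TA, beside 6.51% of all genes, and limma with a replicate block 8, beside 10.6%. EdgeR called 3, beside 10.975%. At an unadjusted p under 0.05, 15 of the 28 were higher in TA, while 6009 of the 25549 genes differed in either direction.

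The genes whose levels followed the mean of the 10 most closely over the 15 libraries, out of 13112 whose mean reached 50 normalized counts, were Lyz2 (r = 0.97), Fcgr3 (0.97), the lysosomal protease gene Ctss (0.95), Fcgr2b (0.95), Trem2 (0.94), Clec4n (0.93), Slc11a1 (0.92), Arrb2 (0.91), Spi1 (0.90) and Ccl6 (0.90). After the population means were subtracted, Lyz2, Ctss, Fcgr3, Spi1, Fcgr2b and Ccl6 were again among the first 10, with r of 0.88 to 0.95. Ctsc, Aif1, Ctsd and Tifab took the other 4 places. Lyz2 stood at 2773 ± 2473 in EVP, 10830 ± 7003 in TA and 3876 ± 1899.7 in D.

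Pan-leukocyte genes were also highest in TA replicate 4. The 10 genes summed to 1838 to 12158 normalized counts in EVP, 8274 to 42156 in TA and 7165 to 11754 in D, and Lcp1 alone, an actin-bundling protein gene, stood at 5719 to 9754 in D. Lcp1 was the one gene of the 10 called between EVP and TA, and it was higher in TA. The median EVP minus D of the 10 was 0.81, against -0.77 for the macrophage transcripts. Ptprc, which encodes CD45, was higher in TA than in D (log2 2.41 ± 0.69, adjusted p = 0.027). So were Laptm5, Cd52, Cd53 and Rac2, 5 of the 10 in all, beside 8.21% of all genes. Ptprc stood at 172 to 1356 in EVP, 268 to 4459.8 in TA and 119 to 390 in D and was above 0 in every library.

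Markers of other blood cells were present in some libraries and low in others. The dendritic cell receptor gene Xcr1 was at 1429 in TA replicate 4 and 656 in TA replicate 5 but at 0.879 to 35.7 in the other 3 TA libraries. Summed over 8 dendritic cell genes, TA replicate 4 stood at 6901 and the other 14 libraries at 282 to 3184. In D the sum was 1339 to 2114, and Zbtb46 accounted for most of it (1496 ± 333). Zbtb46 was also called higher in D than in EVP and in TA. None of the 7 neutrophil genes tested passed the threshold in any comparison by limma. At an unadjusted p under 0.05, 2 were higher in TA than in D. DESeq2 also called 2 higher in TA, beside 6.51% of all genes, and edgeR called 0. The neutrophil surface marker gene Ly6g was at 0 to 14 in all libraries. The part of these cells in the level of the shared transcripts Tyrobp and Fcer1g was not tested.

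**Figure D5:**
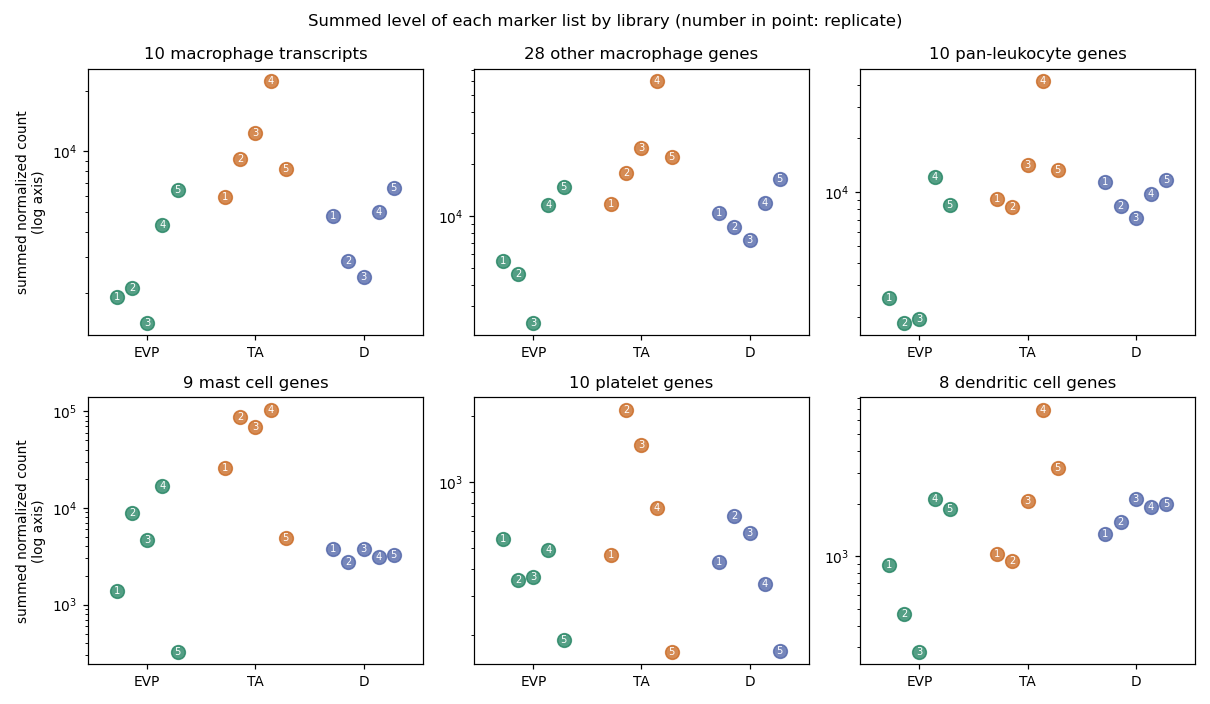
Summed normalized count (log axis) of 6 marker lists by library, with the replicate number in the point. TA replicate 4 is the highest library for the 10 macrophage transcripts (22398), the 28 other macrophage genes (60413), the pan-leukocyte genes (42156), the mast cell genes (103780) and the dendritic cell genes (6901), and TA replicate 2 for the platelet genes (2149).

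Of the ligands of the CSF1 receptor, Csf1 had its highest mean in EVP and Il34 in TA. Csf1 stood at 5968 ± 2523 normalized counts in EVP, 2102 ± 625 in TA and 306 ± 78.4 in D, and it was higher in EVP than in TA (log2 1.48 ± 0.29, adjusted p = 0.0089) and in TA than in D (2.74 ± 0.29, adjusted p = 4.9e-06). Il34 stood at 210.0 ± 128 in EVP, 399 ± 324 in TA and 14.3 ± 12.9 in D, and it was higher in TA than in D (log2 5.00 ± 0.69, adjusted p = 9.8e-05) and in EVP than in D, and did not pass the test between EVP and TA. Among the lineage factors, Spi1 was higher in TA than in D (2.62 ± 0.83, adjusted p = 0.048). Maf and Cebpb were higher in EVP and in TA than in D, Cebpa was higher in EVP than in D, and Irf8 was higher in D than in EVP (-2.80 ± 0.81, adjusted p = 0.020). The Irf8 call was made by neither edgeR nor DESeq2, and that of Cebpa not by edgeR. Irf8 stood at 66.7 to 152 in EVP replicates 1 to 3, whereas EVP replicates 4 and 5, at 2313 and 2155, lay inside the D range of 1679 to 4166.

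Of 20 genes of receptors, kinases and a related adaptor that work with Tyrobp or Fcer1g, 5 were higher in TA than in EVP by limma and 2 by edgeR (Fcgr3 and Lyn). The 5 were the adaptor gene Hcst, the receptor genes Fcgr1, Fcgr3 and Trem2 and the kinase gene Lyn, of which Fcgr1 and Trem2 are also among the 28 macrophage genes. Of all genes, 1.94% were called higher in TA than in EVP by limma and 3.03% by edgeR. Fcgr3, an Fc receptor gene, had a log2 EVP minus TA of -2.55 ± 0.47 (adjusted p = 0.0067). Hcst and Lyn were higher in D than in EVP, and Lyn was higher in D than in TA (log2 TA minus D -0.95 ± 0.29, adjusted p = 0.042), a call that edgeR did not make. Of the 20, 0 were higher in TA than in D by limma, with 7 at an unadjusted p under 0.05, 3 by edgeR and 7 by DESeq2.

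The enzymes that act with C1q had the opposite order of populations to C1qa, C1qb and C1qc in EVP and TA. C1ra and C1s1, which encode the proteases of the C1 complex, were higher in EVP than in TA (log2 1.72 ± 0.41, adjusted p = 0.026, and 1.75 ± 0.34, adjusted p = 0.0090) and higher in TA than in D (5.75 ± 0.41 and 5.81 ± 0.34). C1s1 stood at 11684 ± 5599 in EVP, 3519 ± 1688 in TA and 56.0 ± 7.27 in D. Serping1, the gene of their inhibitor, and Lrp1, an endocytic receptor of phagocytes and stromal cells, showed the same order and passed the test in all 3 comparisons. Cd93, once described as a C1q receptor and known on endothelium, was higher in D than in TA and in TA than in EVP. Of these 7 partner genes, Calr was higher in EVP than in D and passed no other test. The calls of Calr and of Cd93 between TA and D were not made by edgeR.

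Of the 13 other Ms4a genes tested, Ms4a4d had a pattern unlike that of Ms4a7, with 3684 ± 1239 in EVP, 1389 ± 891 in TA and 11.2 ± 11.2 in D. It was higher in TA than in D (log2 7.55 ± 0.74, adjusted p = 2.0e-06), as were Ms4a2 of mast cells, Ms4a1 of B cells and Ms4a6b. By edgeR only Ms4a4d of these 4 was called. Between EVP and TA only Ms4a6d passed the test among the 13.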

How the data were processed

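The authors aligned paired-end reads of modified Smart-Seq2 libraries with STAR 2.5.3a to GRCm38, counted them per Ensembl gene with HTSeq-count and divided the counts by DESeq2 1.10.1 size factors. The deposited signal is these normalized counts. Deposited tables of the authors' own comparisons (fold changes and p-values) were not used. Values were whole multiples of 1 read for 100% of entries (tolerance 0.01), which gave reads and depth. GENCODE vM21 gave exon lengths and positions. limma 3.58.1 (R 4.3.3) was fitted to log2(normalized count + 1) of genes with a mean of at least 5, all 15 libraries together, without a block, with Benjamini-Hochberg adjustment over 25549 genes, so folds of low genes are understated. The p-values measure spread between these libraries, which may be partly technical. Named genes were the 10 transcripts, genes of marker lists past the threshold or at 0, and the 10 genes most like the set. The transcripts and lists were chosen with earlier results of these data known. Alternatives were other pseudocounts, filters, scalings, edgeR 4.0.16 and DESeq2 1.42.0 on whole reads, a replicate block, 2 populations only and libraries left out. The fits were tested on simulated data.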

Additional observations from a re-analysis of the deposited data

Results flagged for a closer look

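In 3 of the 30 groups of 5 libraries, 1 library stood far from the other 4 by Dixon's criterion, where chance flags about 1 in 20 groups (1.5 of 30). Cd68 was at 4273 (4272.5) normalized counts in TA replicate 4, and Adgre1 was at 1051 (1050.7) in the same library, which was also the highest of all 15 for 9 of the 10 transcripts. Ms4a7 was at 187 (187.38) in EVP replicate 5, the library with the highest value in EVP for 7 of the 10. Why these libraries stood apart was not tested.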

How the results depend on the processing

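The log2 differences of the 10 transcripts moved by less than the spread between libraries in all 270 recomputed values of each of the 3 comparisons. Several settings, among them the filters, the replicate block and the 2-population fits, return the same log2 differences by construction. Leaving out 1 of 5 libraries can move a mean only little against that spread. No stability is therefore read from this count. With 1 library left out, EVP minus TA changed sign for Csf1r (-0.25 to 0.29), and EVP minus D did for Tyrobp (-0.27 to 0.50) and Adgre1 (-0.95 to 0.08). Scaling every library to the same total moved the median of all genes in EVP minus TA from 0.09 to -0.08 and that of the 10 transcripts from -2.20 to -2.38, and split the genes called between EVP and TA into 240 higher in EVP and 716 higher in TA, against 398 and 495. Genes called between EVP and TA numbered 893, 891 with edgeR, 1981 with DESeq2, 522 without replicate 1 of each population and 428 to 1209 with 1 library left out. The ranges with 1 library left out were 4106 to 5150 between EVP and D and 2403 to 3581 between TA and D. Called among the 28 other macrophage genes between EVP and TA were 5, against 3 without the filter on low values, 2 with edgeR, 10 with DESeq2, 2 with only these populations fitted, 1 without replicate 1 of each population, 9 with a term for replicates 4 and 5 and 1 without EVP replicate 1 and TA replicate 4 (the last 2 chosen after seeing the data), and 1 to 7 with 1 library left out: 1 without EVP replicate 2 or 3 or TA replicate 3 or 4, 2 without EVP replicate 1 or TA replicate 1, and 3 without TA replicate 2 or D replicate 4 or 5. Between TA and D the count was 2, against 11 with DESeq2, 4 with only these populations fitted, 10 without replicate 1 of each population, 8 with the term for replicates 4 and 5 and 2 to 6 with 1 library left out (6 without TA replicate 1). Between EVP and D it was 3 with each library left out. The causes were not tested. The main fit did not pair libraries by replicate number, because not all of the 15 pairs with the same number had a correlation of deviations above 0.1. Of the 15, 11 did (range -0.14 to 0.69). Yet in 23 of 30 pairings of a library with another population, the library correlated best with its own number. The 9 pairs of replicates 1, 4 and 5 were at 0.36 to 0.69. Libraries with the same number were thus alike in part, and the main fit makes no use of that. Whether they came from the same sort was not given in the sources used here. Within replicate numbers 1 to 5, TA was above EVP for 9, 9, 10, 10 and 9 of the 10 transcripts. TA was above D for 9, 10, 10, 10 and 8 of them, and D above EVP for 9, 8, 9, 6 and 6. The 10 were chosen on these data and moved together, so these counts are a description and nothing is read from them. With the replicate block, the genes called numbered 5710 for EVP against D, 1262 for EVP against TA and 4047 for TA against D, and the other macrophage genes called numbered 4, 7 and 8 in that order. Depth limits EVP replicate 1 most, where 1 read is worth 3.51 normalized counts.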
